A study of Mus musculus with 12 samples.

Results

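BAT and scWAT of Lr11 -/- mice were compared with 3 one-colour Agilent arrays for each depot, 6 of the 12 arrays of the study. LR11, also called SorLA and encoded by Sorl1, is a sorting receptor that is also shed into the circulation. All 12 arrays came from males on a C57Bl6/J background at 12 weeks of age on HFD, in which 60% of the calories were fat. Lr11 -/- animals lack the gene in the whole body, and their WT littermates served as controls. The length of the diet is not settled, since 1 label reads 4 weeks and another dates it from weaning. To be tested, a probe had to be called well above background by the scanner software on each of the 3 arrays of BAT, of scWAT or of both. This left 29801 of 55681 probes, which stand for 14049 of the 20660 genes that could be named. The same was done for WT BAT against WT scWAT (31600 probes, 14542 genes), to ask which differences between the depots were measured in both genotypes and which in WT alone. The methods give n = 3 for each RNA source but not whether BAT and scWAT came from the same mice. The labels do not tie an array to a mouse, so the p-values measure the spread between these arrays only.

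Brown adipocytes burn fatty acids in densely packed mitochondria and release the energy as heat through uncoupling protein 1 (UCP1), whereas white adipocytes store lipid in 1 large droplet and secrete hormones such as leptin. Subcutaneous white fat can take on thermogenic adipocytes, called beige or brite, without becoming interscapular brown fat by origin. The Hox genes lie in clusters and are read in register with the position along the body axis. Some keep this pattern in adult tissue, and fat depots can differ in them.

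Levels are log2 intensities relative to the 75th percentile of their array, and differences are BAT minus scWAT on the same log2 scale. Sorl1 was low on all 6 Lr11 -/- arrays, with levels of -3.57, -3.56 and -2.86 in scWAT and -3.94, -2.45 and -2.47 in BAT, against 0.11 to 1.21 on the 6 WT arrays. It did not differ between the Lr11 -/- depots beyond the spread (0.37, adjusted p = 0.80).

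Promoter windows are shown for the genes on which the comparison turns: Ucp1 and Dio2 for the thermogenic genes, Zic1 for the marks of brown lineage, and Hoxa10, with both of its annotated starts, for the Hox genes. Each runs from 250 bases before to 50 after a transcription start, 5′ to 3′ on the strand of the gene, in RefSeq on GRCm38.p6. Capitals mark the motifs found on either strand among AAGGTCA (a nuclear receptor site), TGACGTCA (the cAMP response element), GGGCGG (the GC box) and TATAAA (the TATA box).
Ucp1, chr8:83290098-83290397, plus strand: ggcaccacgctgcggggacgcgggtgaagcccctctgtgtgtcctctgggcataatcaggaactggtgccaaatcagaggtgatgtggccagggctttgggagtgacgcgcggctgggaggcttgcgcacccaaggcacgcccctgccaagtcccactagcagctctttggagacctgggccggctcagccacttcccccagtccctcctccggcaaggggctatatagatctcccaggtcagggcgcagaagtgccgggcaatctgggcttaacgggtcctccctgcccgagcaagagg
Dio2, chr12:90738989-90739288, minus strand: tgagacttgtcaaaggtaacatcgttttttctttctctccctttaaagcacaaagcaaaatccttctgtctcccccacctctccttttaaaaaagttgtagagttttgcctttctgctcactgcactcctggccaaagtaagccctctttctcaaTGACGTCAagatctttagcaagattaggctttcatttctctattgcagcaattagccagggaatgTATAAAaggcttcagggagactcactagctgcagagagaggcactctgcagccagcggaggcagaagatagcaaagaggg
Zic1, chr9:91365719-91366018, minus strand: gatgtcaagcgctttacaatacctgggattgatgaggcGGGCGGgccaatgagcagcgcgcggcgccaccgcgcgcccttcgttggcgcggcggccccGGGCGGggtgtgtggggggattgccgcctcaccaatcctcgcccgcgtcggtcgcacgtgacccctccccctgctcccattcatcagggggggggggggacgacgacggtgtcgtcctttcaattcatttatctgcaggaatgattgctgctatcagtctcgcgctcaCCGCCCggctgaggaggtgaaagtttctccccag
Hoxa10, chr6:52240805-52241104, minus strand: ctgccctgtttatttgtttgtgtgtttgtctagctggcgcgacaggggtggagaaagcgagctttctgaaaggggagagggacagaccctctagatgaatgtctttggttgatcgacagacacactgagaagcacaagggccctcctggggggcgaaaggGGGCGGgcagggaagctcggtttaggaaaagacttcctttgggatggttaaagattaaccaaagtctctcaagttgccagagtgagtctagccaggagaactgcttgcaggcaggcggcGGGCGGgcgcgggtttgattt
Hoxa10, chr6:52234890-52235189, minus strand: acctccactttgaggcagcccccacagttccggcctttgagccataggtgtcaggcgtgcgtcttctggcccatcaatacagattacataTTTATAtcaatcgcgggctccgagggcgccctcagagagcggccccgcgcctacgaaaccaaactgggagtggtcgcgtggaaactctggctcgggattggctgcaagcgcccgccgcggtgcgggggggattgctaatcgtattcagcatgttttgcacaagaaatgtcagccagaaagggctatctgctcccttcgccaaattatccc
None of the 4 motifs was found in the Ucp1 window. The Dio2 window held 1 TGACGTCA and 1 TATAAA, the Zic1 window 3 GGGCGG, and the Hoxa10 windows 2 GGGCGG and 1 TATAAA. Over all 32851 such windows of the table, AAGGTCA was in 4.72%, TGACGTCA in 1.79%, GGGCGG in 35.7% and TATAAA in 13.6%. The windows of Ucp1 and Zic1 held 15 and 31 CG dinucleotides and that of Dio2 held 3, against a median of 7.

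Several arrays stood apart, and the results rest on them. The arrays of Lr11 -/- scWAT replicates 2 and 3 correlated with the 6 BAT arrays at r = 0.960 to 0.981 over the tested probes and with each other at 0.989, while replicate 1 correlated with them at 0.928 and 0.924 and with BAT at 0.919 to 0.941. Replicate 1 is the array of a first array series, in which each depot had a slide of its own, so that within that series depot and slide cannot be told apart. All 8 arrays of the second series shared a slide. Skeletal muscle genes were fixed as a list of 18, of which 9 were tested in Lr11 -/- mice and 10 in WT. Those tested in either genotype had a median level of 9.14 on Lr11 -/- scWAT replicate 1 and of 6.46 on Lr11 -/- BAT replicate 1. On the other 4 Lr11 -/- arrays the median was -1.97 to -1.54. Of the WT arrays, scWAT replicate 3 (8.96) and BAT replicates 1 and 3 (7.29 and 6.80) also carried muscle transcripts. The epithelial genes Krt18 and Krt19 stood at 5.07 and 4.13 on Lr11 -/- scWAT replicate 1 and at -1.21 and -2.83 or lower on the other Lr11 -/- arrays. Of the WT arrays, scWAT replicate 3 was highest for both, at 2.93 and 1.34. Lr11 -/- scWAT replicates 2 and 3 carried transcripts of the epididymis. Here 7 genes (Gpx5, Spag11b, Lcn8, Lcn9, Defb20, Spink8 and Cst12), chosen after their values were seen, had a median of -2.22 and -1.03 and were well above background, against -7.01 to -6.32 on the other 10 arrays, where none was. The part that the other tissues had in the depot differences was not tested. In whole tissue, fewer cells of a type and less RNA per cell cannot be told apart.

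**Figure D1:**
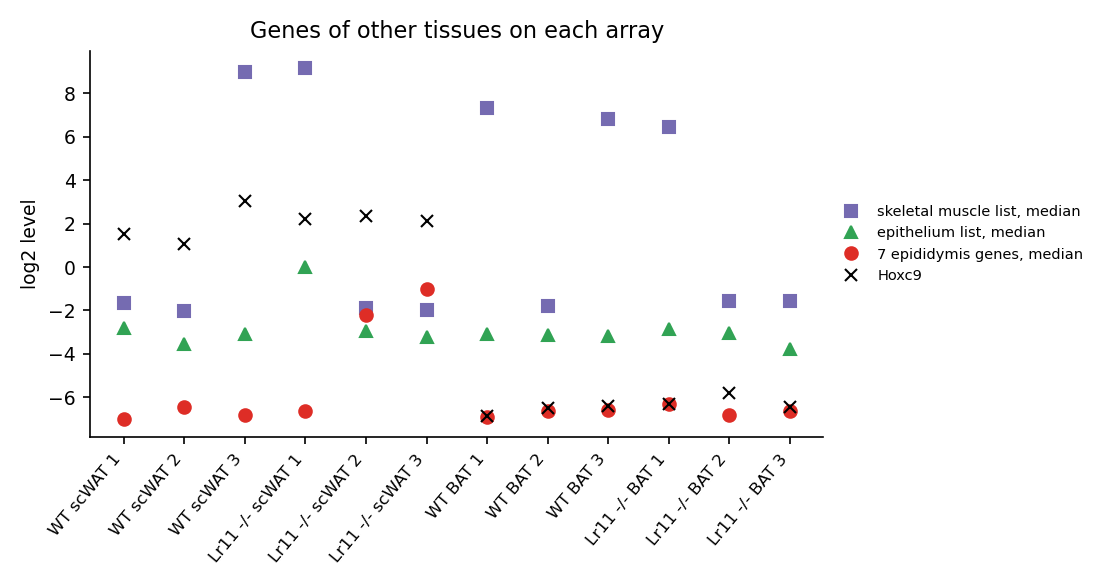
Log2 level (y axis, relative to the 75th percentile of the array) on each of the 12 arrays (x axis). Shown are the medians over the tested genes of the skeletal muscle list and of the epithelium list, the median of 7 epididymis genes, and Hoxc9. Muscle transcripts stand between 6.46 and 9.14 on 5 arrays, epididymis transcripts are high on Lr11 -/- scWAT replicates 2 and 3, and Hoxc9 separates scWAT from BAT on all arrays.

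Few depot differences passed the test in Lr11 -/- mice. At an adjusted p under 0.05, 10 probes differed between Lr11 -/- BAT and Lr11 -/- scWAT (0.0336% of those tested), 5 higher and 5 lower in BAT (0.0168% each). In WT mice 7924 probes did so, 4980 higher in BAT (15.8%) and 2944 lower (9.32%). The arrays of both Lr11 -/- depots did not overlap for many more probes, 4402 with all BAT arrays higher (14.8%) and 2758 with all lower (9.25%), and the unadjusted p was under 0.05 for 2680. The direct test of the genotype effect on the depot difference, the interaction, called 0 of 32131 probes (0%), with 3523 at an unadjusted p under 0.05 and a lowest adjusted p of 0.17. Probes lost from the calls in Lr11 -/- mice were therefore not shown to differ between the genotypes by the fit over all 12 arrays.

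The counts depended on single arrays. Without Lr11 -/- scWAT replicate 1, 94 probes were called between the Lr11 -/- depots and 1222 in the interaction, and without WT scWAT replicate 1, 2 or 3 the first count was 20, 24 and 19 and the second 51, 2 and 266. With arrays weighted by their fit, 5095 and 1514 were called, under weights that gave Lr11 -/- scWAT replicate 2 the value 8.54 and replicate 1 the value 0.198. In the second series alone, on 1 slide, 42 and 859 were called. No conclusion is drawn from counts without the 5 arrays with muscle transcripts, which leaves WT BAT replicate 2 alone in its group. The WT count of 7924 was 5251 without WT scWAT replicate 2, 3894 and 3087 without WT BAT replicate 1 or 2, and 4012 with the slide as a block.

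Of the 29270 probes tested in both genotypes, 9 were called in both in the same direction, 4 higher and 5 lower in BAT, and 7284 in WT alone. No probe was called in Lr11 -/- mice alone, although 1 of the 10 was not tested in WT. Among the 7293 probes called in WT, the Lr11 -/- difference reached 50% or more of the WT difference at 1554 (21.3%), was smaller with the same sign at 73.0% and had the opposite sign at 5.69%. Probes higher in WT BAT had a median difference of 1.43 in WT and of 0.50 in Lr11 -/- mice, and probes lower in WT BAT of -1.57 and -0.47. These probes were chosen for a called WT difference, and a set so chosen tends to read smaller in other arrays. Read from the other side, the 9 probes called in Lr11 -/- mice and tested in WT all had at least 50% of their Lr11 -/- difference in WT.

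The reduction was not alike on the 3 Lr11 -/- scWAT arrays. For probes higher in WT BAT, the mean of the Lr11 -/- BAT arrays lay 0.97 above Lr11 -/- scWAT replicate 1, 0.34 above replicate 2 and 0.15 above replicate 3 in the median. The corresponding values in WT were 1.18, 1.75 and 1.31. For probes lower in WT BAT, the medians were -0.77, -0.35 and -0.30 in Lr11 -/- mice and -1.36, -1.87 and -1.19 in WT. Replicate 1 thus lay farthest from BAT and replicates 2 and 3 closest to it. Without replicate 1 the share of WT calls with 50% or more was 12.4%, and without replicate 3 it was 39.3%. The median SD between replicates was 0.37 in Lr11 -/- scWAT and 0.21 in Lr11 -/- BAT, against 0.52 and 0.24 in the WT depots.

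**Figure D2:**
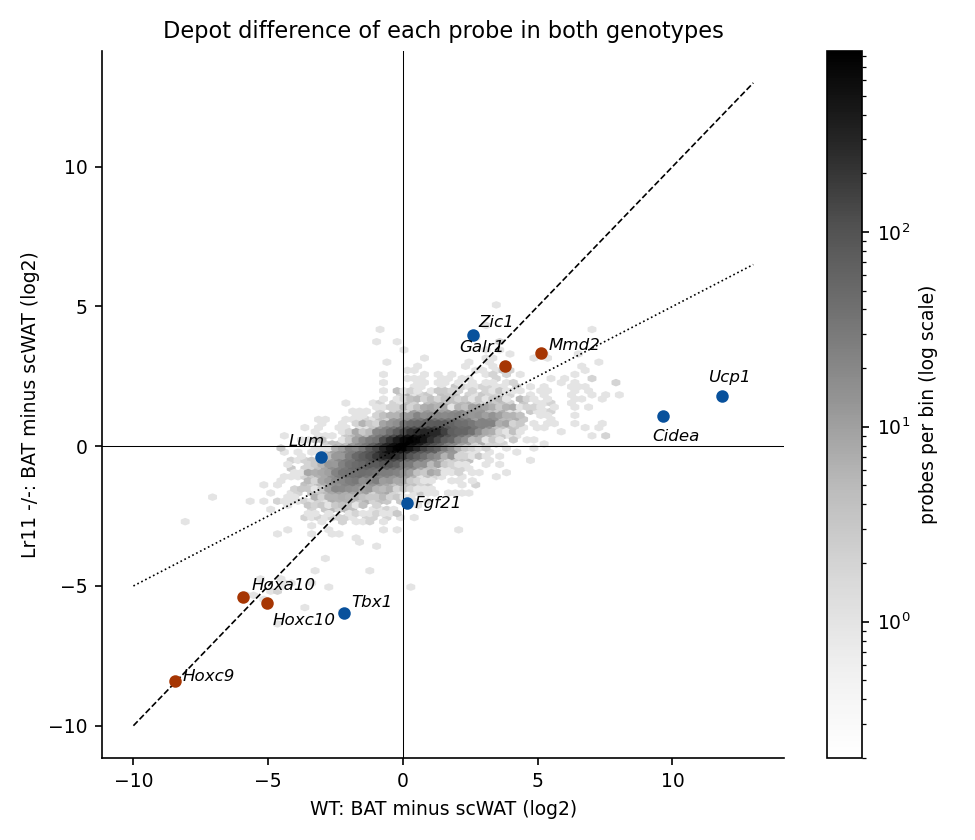
Depot difference (BAT minus scWAT, log2) of the 29270 probes tested in both genotypes, with WT on the x axis and Lr11 -/- on the y axis (grey bins, log colour scale). The dashed line marks equal differences and the dotted line 50% of the WT difference. Red-brown points are genes called in Lr11 -/- mice, all beyond 50% of the WT difference, and blue points are other genes of the text, of which Ucp1 and Cidea lie below the dotted line.

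The depot differences that remained were led by Hox genes. Hoxc9 (probe A_52_P346987), which encodes a homeodomain factor of the posterior trunk, was at 2.19, 2.36 and 2.14 on the Lr11 -/- scWAT arrays and at -6.28, -5.79 and -6.46 on the Lr11 -/- BAT arrays. All scWAT arrays were thus bright and no BAT array was well above background. The difference was -8.41 ± 0.42 (SE, adjusted p = 2.8e-05), and scWAT was at least 201-fold brighter. In WT the difference was -8.46, and the interaction was 0.05.

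Hoxc10 (probe A_51_P375754) was at 0.75, 0.48 and 0.07 in Lr11 -/- scWAT and at -6.30, -4.72 and -4.50 in Lr11 -/- BAT. Its difference of -5.61 ± 0.64 (SE, adjusted p = 0.014) stood beside -5.03 in WT, and scWAT was at least 39.2-fold brighter. Hoxa10 (probe A_55_P2164348) was at -0.97, -1.17 and -1.27 in Lr11 -/- scWAT and at -6.25, -6.73 and -6.62 in Lr11 -/- BAT, a difference of -5.40 ± 0.50 (SE, adjusted p = 0.0034) beside -5.92 in WT, at least 19.4-fold. Neither was well above background on any Lr11 -/- BAT array, and the arrays of both depots were far apart for both genes. Hoxc9 and Hoxa10 were also called in the second series alone (adjusted p = 0.0278 and 0.0465), where Hoxc10 was not (-4.89, adjusted p = 0.102). With the slide as a block, Hoxc10 was not called either (adjusted p = 0.0931).

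Of the 39 Hox genes on the list, 26 were tested in Lr11 -/- mice, and 3 were called lower and 0 higher in BAT. Their median difference was -0.13, against 0.08 over all named genes tested, and 8 lay lower and 5 higher in BAT without overlap. Over all 14044 named genes tested with 1 probe each, the depots did not overlap for 10.4% lower and 15.1% higher in BAT, the background for this and the following lists. The genes with a WT call that were tested in both genotypes numbered 9, of which 7 had a Lr11 -/- difference of 50% or more of the WT one. Over all named genes that count was 707 of 3641. The anterior members Hoxa4 (1.35 in Lr11 -/-, 3.03 in WT), Hoxa5 (1.82 and 2.0), Hoxc4 (1.41 and 1.62) and Hoxc5 (1.15 and 2.18) had positive differences in both genotypes, called in WT and not in Lr11 -/- mice. Hoxc8 (-2.01 and -1.25), Hoxd9 (-1.58 and -1.92) and Hoxb7 (-1.23 and -1.13) had negative ones that were called in neither genotype. Hoxa9 (-0.03 and -0.06) had no difference beyond the spread in either, and Hoxb9 had -0.12 in Lr11 -/- mice and -2.01 in WT, where it was called.

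Slitrk4 (probe A_55_P2130660), a membrane protein best known from neurons, was at -2.40, -2.36 and -2.19 in Lr11 -/- scWAT and at -6.18, -4.83 and -5.62 in Lr11 -/- BAT. It fell by 3.23 on the log2 scale (adjusted p = 0.027), at least 7.24-fold, with -1.74 in WT. H2-M9 (probe A_55_P2153757), a class I gene of the major histocompatibility complex, was at -1.34, -2.10 and -1.68 in scWAT and -4.67, -3.95 and -4.39 in BAT, a difference of -2.63 (adjusted p = 0.034) with -1.76 in WT, and it was well above background on 1 of the 3 BAT arrays. The second probe of each gene gave a smaller difference that was not called (-1.66 and -1.59), and H2 genes are close paralogs that probes may not tell apart.

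Higher in Lr11 -/- BAT were Mmd2 and Galr1. Mmd2 (probe A_51_P257885), a membrane protein of the progestin and adipoQ receptor family, was at -3.54, -4.10 and -3.35 in Lr11 -/- scWAT and at -0.04, -1.15 and 0.19 in Lr11 -/- BAT. Its difference was 3.33 ± 0.40 (SE, adjusted p = 0.021) in Lr11 -/- mice and 5.12 in WT, where no scWAT array was well above background. Galr1 (probe A_55_P2161375), a receptor for the neuropeptide galanin, was at -6.58, -6.23 and -6.30 in scWAT and at -3.68, -3.72 and -3.08 in BAT. It was well above background on all Lr11 -/- BAT arrays and on no Lr11 -/- scWAT array, so that BAT was at least 4.61-fold brighter (difference 2.88, adjusted p = 0.013), with 3.80 in WT. The remaining 3 called probes, all higher in BAT by 2.69 to 3.34, carry no gene name here. All 10 were also called without Lr11 -/- scWAT replicate 1, but 6 without its replicate 2, 5 without its replicate 3, 6 without Lr11 -/- BAT replicate 3 and 7 with only the Lr11 -/- arrays in the fit. In the second series alone Mmd2 (3.25, adjusted p = 0.221), Galr1 (2.87, adjusted p = 0.0557) and H2-M9 (-2.28, adjusted p = 0.146) were not called, while Slitrk4 and the 3 probes with no name were. With the slide as a block Slitrk4 (adjusted p = 0.0931), H2-M9 (adjusted p = 0.0931) and Mmd2 (adjusted p = 0.113) were not called. After the normexp background correction 2 were called, Hoxc9 and Hoxc10, and none where probes had to be well above background on all 12 arrays, a filter that removes genes dim in a depot.

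**Figure D3:**
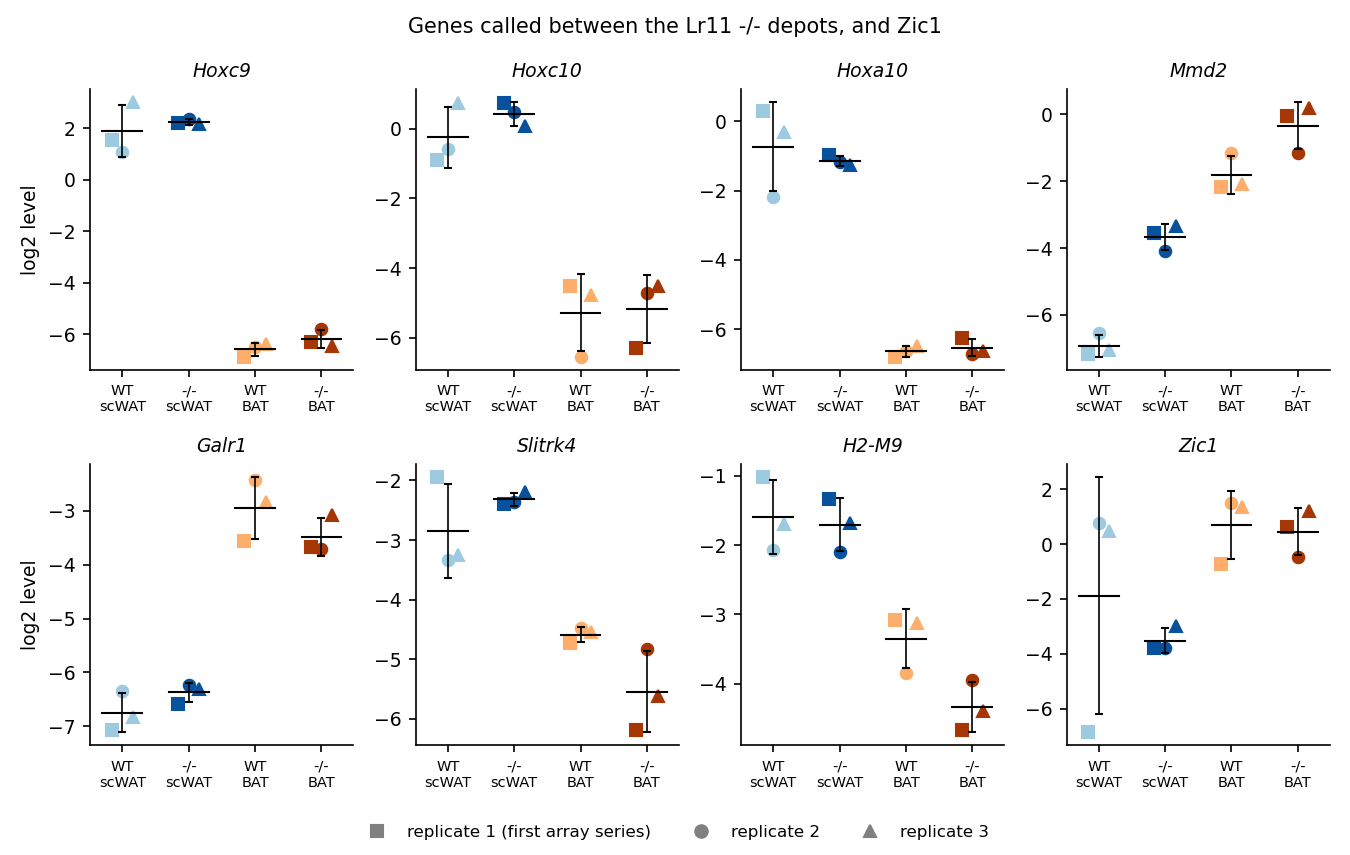
Log2 levels on the 12 arrays (y axis) by group (x axis) for the 7 named genes called between the Lr11 -/- depots and for Zic1, which was not called. Points are arrays, with squares for the first array series, and bars are the mean ± SD (n = 3). The Lr11 -/- depots do not overlap for any of the 8 genes.

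Some marks of brown lineage had an order between the Lr11 -/- depots without reaching the threshold. The list had 12 genes, of which 10 were tested in Lr11 -/- mice. None was called, and 4 lay higher and 1 lower in BAT without overlap, while the depots overlapped for the other 5. The median difference was 0.53 in Lr11 -/- mice and 1.72 in WT, where 5 were called higher in BAT. Zic1, a zinc finger factor that marks interscapular brown fat, was at -3.79, -3.79 and -2.99 in Lr11 -/- scWAT and at 0.60, -0.46 and 1.21 in Lr11 -/- BAT. All 3 BAT arrays were brighter than all scWAT arrays, by 3.98 ± 1.63 (SE, adjusted p = 0.51). In WT scWAT, however, Zic1 was at -6.85, 0.76 and 0.46, which widened the shared spread, and a second, dimmer probe gave 0.33. Prdm16, a coregulator of the brown fat programme, was at -1.32, -0.19 and -0.97 in scWAT and 0.93, 0.70 and 0.64 in BAT (1.59, adjusted p = 0.49, with 2.19 in WT). Ebf2, a transcription factor of brown preadipocytes, kept less, with 0.48 against 2.29 in WT. Lhx8 was at 0.58, -3.00 and -3.25 in scWAT and -0.75, -1.69 and -0.27 in BAT, so that its depots overlapped.

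Of 12 beige and subcutaneous marks 10 were tested and none was called in Lr11 -/- mice (median -0.58, and -0.19 in WT). Without Lr11 -/- scWAT replicate 1 the Lr11 -/- median was -0.15. Tbx1, a T-box factor used as a mark of beige adipocytes, was at 3.47, 1.30 and 0.87 in Lr11 -/- scWAT and at -2.76, -4.05 and -5.46 in Lr11 -/- BAT. The depots did not overlap and the difference was -5.97 (SE 1.74, adjusted p = 0.37). In WT, Tbx1 was at -4.39, -0.54 and 1.90 in scWAT and -1.01, -6.84 and -1.80 in BAT, which did overlap. Of 24 white adipocyte genes and adipokines, all tested, none was called in Lr11 -/- mice, with 8 lower and 2 higher in BAT without overlap and a median of -0.40 (-1.16 in WT). Psat1, an enzyme of serine synthesis, was at 2.38, 2.30 and 2.26 in scWAT and 0.26, 0.70 and -0.28 in BAT (-2.09, adjusted p = 0.38, with -2.83 in WT), and Retn, which encodes resistin, had -1.58 beside -1.71 in WT. Leptin itself (Lep) was at -1.09, 1.13 and 1.56 in scWAT and 0.07, 1.81 and -1.0 in BAT, with no order between the Lr11 -/- depots. Adipoq, a gene of all adipocytes, was at 7.47 to 8.03 on all 6 arrays.

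No depot difference of a thermogenic gene was called in Lr11 -/- mice. Of 24 genes, 23 were tested, 0 were called in Lr11 -/- mice and 20 were called higher in BAT in WT. The median difference was 1.40 in Lr11 -/- mice and 4.76 in WT, and at 0 of the 20 did Lr11 -/- mice keep 50% of the WT difference. In the second series alone the Lr11 -/- median was -0.06, and from the 1 pair of first-series arrays 3.42, which has no replicate. Leaving out the 5 arrays with muscle transcripts leaves these same second-series Lr11 -/- arrays.

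Ucp1 (probe A_51_P426353) was at 4.39, 9.75 and 10.05 on the Lr11 -/- scWAT arrays and at 9.81, 9.75 and 10.08 on the Lr11 -/- BAT arrays. Replicates 2 and 3 of scWAT thus stood at the level of BAT, and replicate 1 far below it. In WT scWAT Ucp1 was at -4.62, -4.52 and 2.92, and in WT BAT at 9.44 to 10.04. The depot difference was 1.81 ± 1.91 (SE, adjusted p = 0.79) in Lr11 -/- mice and 11.84 (adjusted p = 0.0042) in WT. The interaction was -10.02 (unadjusted p = 0.0037, adjusted p = 0.38). Without Lr11 -/- scWAT replicate 1 the Lr11 -/- difference was -0.02 and the interaction -11.86 (adjusted p = 0.0335).

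Cidea, a lipid droplet protein of brown adipocytes, followed the same order of arrays, with 6.31, 10.04 and 10.06 in Lr11 -/- scWAT and 9.82, 9.82 and 9.99 in Lr11 -/- BAT (1.07, with 9.67 in WT). Dio2, the deiodinase that activates thyroid hormone in the tissue, was at -1.12, 4.90 and 4.29 in scWAT and at 5.11, 4.20 and 5.14 in BAT. Its difference was 2.13 over all arrays (adjusted p = 0.66) and 0.08 in the second series, with 4.62 in WT. Cox7a1 and Cox8b, subunits of cytochrome c oxidase of brown fat and muscle, had 0.73 and 0.70 in Lr11 -/- mice and 6.40 and 6.77 in WT. Fabp3, a fatty acid binding protein of oxidative tissues, had 0.73 and 7.23, and Slc27a2, an acyl-CoA synthetase for very long chains, 1.88 and 8.0. Acsm3 (0.39 and 7.51), a mitochondrial acyl-CoA synthetase, and Slc2a5 (0.43 and 7.01), the fructose transporter, were also among the genes with the largest loss. For none of these 8 genes was the interaction called over all arrays (adjusted p = 0.37 to 0.63). The muscle transcripts on 5 arrays bear on Cox7a1, Cox8b and Fabp3, which muscle also expresses.

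**Figure D4:**
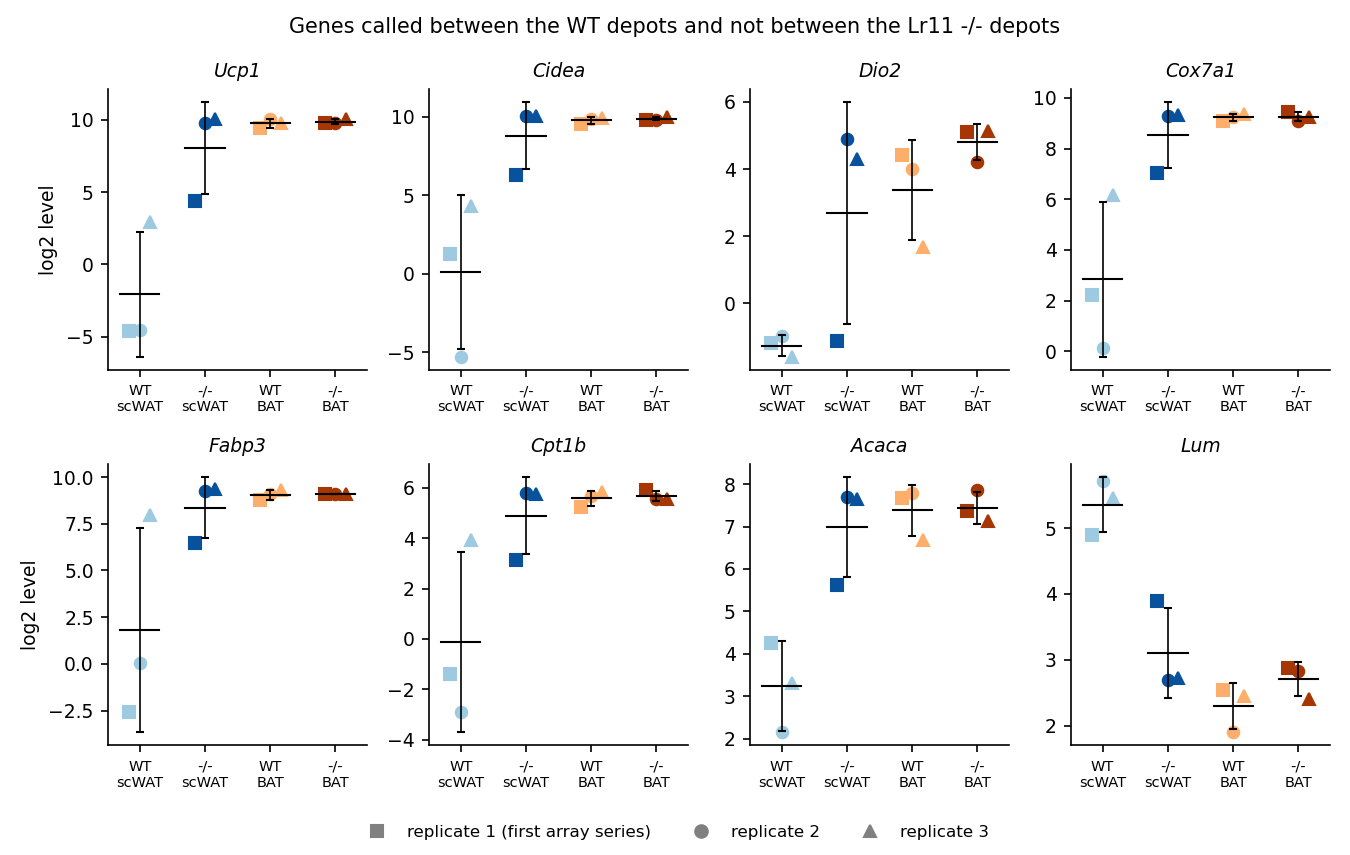
Log2 levels on the 12 arrays (y axis) by group (x axis) for 8 genes called between the WT depots and not between the Lr11 -/- depots. Points are arrays, with squares for the first array series, and bars are the mean ± SD (n = 3). For Ucp1 to Acaca, Lr11 -/- scWAT replicates 2 and 3 stand at or near the BAT level and replicate 1 below it, and for Lum they stand at the BAT level and replicate 1 above it.

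The genes of oxidative metabolism were likewise called between the WT depots and not between the Lr11 -/- depots. Of 76 subunits of the respiratory chain and ATP synthase, 72 were called higher in WT BAT and 0 in Lr11 -/- mice, with medians of 2.21 and 0.50. The 16 genes of the citrate cycle and the 18 of mitochondrial fatty acid oxidation were all called in WT and none in Lr11 -/- mice. Their medians were 3.11 and 3.44 in WT and 0.82 and 0.78 in Lr11 -/- mice. None of the genes of these lists called in WT kept 50% of its WT difference. Citrate synthase (Cs) was at 6.89, 9.35 and 9.30 in Lr11 -/- scWAT and 8.88, 9.04 and 9.11 in Lr11 -/- BAT, so that 2 scWAT arrays were above all BAT arrays. In the citrate cycle 9 of 16 genes remained higher in Lr11 -/- BAT without overlap, although at differences of at most 1.11. Cox6a2, the muscle isoform of a cytochrome c oxidase subunit, had the lowest value of the first list (-5.09) and was not called in WT. In the second series the Lr11 -/- medians were 0.00 for the respiratory chain, 0.13 for the citrate cycle and -0.03 for fatty acid oxidation. Without Lr11 -/- scWAT replicate 1, the interaction was called for 29 of the 76, 8 of the 16 and 14 of the 18 genes. Over all probes, that setting called the interaction at 1222 of 32692.

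Lipogenic genes had a median of 0.49 in Lr11 -/- mice and 3.01 in WT, where 7 of 14 were called. Acaca, the acetyl-CoA carboxylase that commits carbon to fatty acids, was at 5.63, 7.69 and 7.65 in Lr11 -/- scWAT and 7.36, 7.86 and 7.12 in Lr11 -/- BAT (0.46, with 4.15 in WT). Fasn, the fatty acid synthase, had 0.81 and 5.42. In the second series the median of the list was -0.48. For Acly, Lr11 -/- scWAT replicates 2 and 3 stood at the top of the BAT range (7.81 and 7.75, BAT 6.43 to 7.76). Of 22 genes of lipid storage and lipolysis tested, 7 were called in WT and 0 in Lr11 -/- mice (medians 1.66 and 0.17, and -0.07 in Lr11 -/- mice without scWAT replicate 1). Pck1, which supplies glycerol for triglycerides, had 0.26 against 4.00 in WT.

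**Figure D5:**
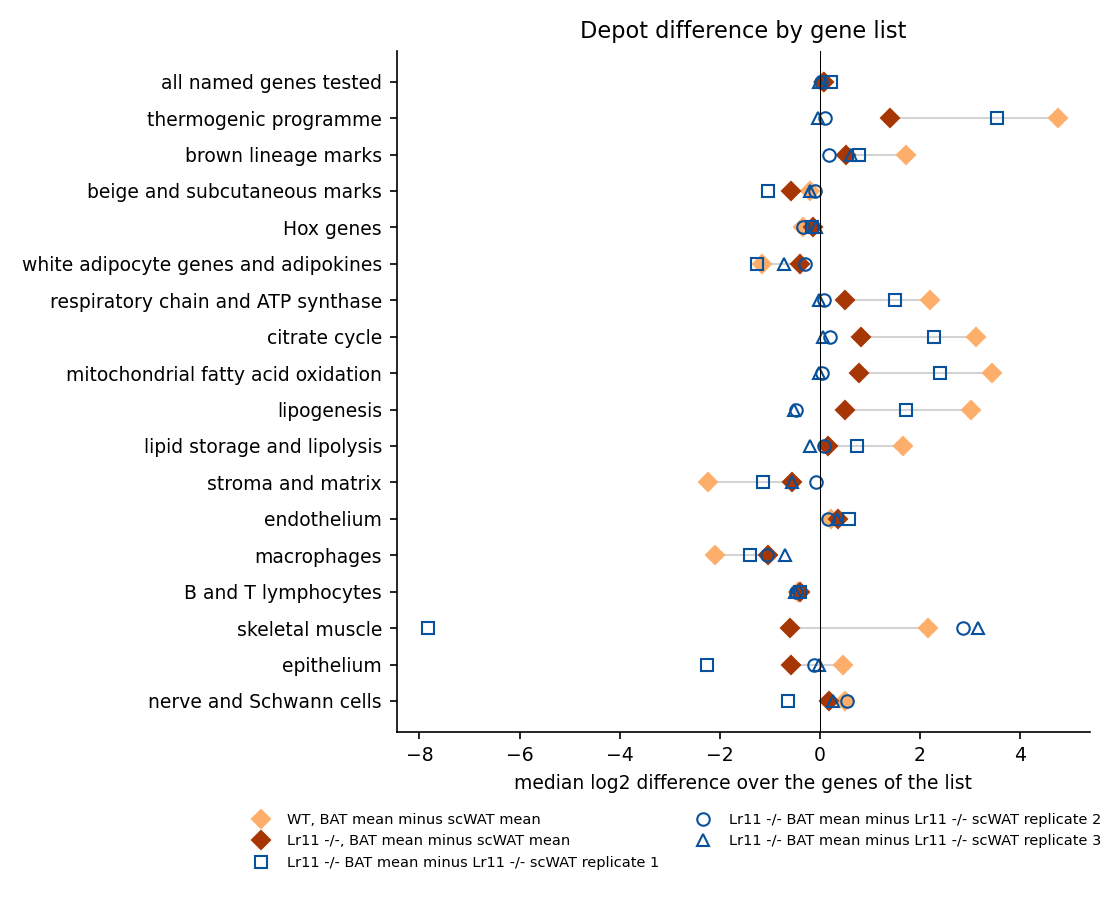
Median depot difference (x axis, log2, BAT minus scWAT) over the tested genes of each list (y axis), for WT and Lr11 -/- group means (diamonds) and for the Lr11 -/- BAT mean minus each Lr11 -/- scWAT array (open symbols). In the metabolic lists replicate 1 (squares) lies towards the WT value and replicates 2 and 3 near 0, whereas the macrophage list stays below 0 for all 3.

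Genes of the stroma and of macrophages had a negative median difference in both genotypes. Of 27 genes of stroma and matrix, 21 were called lower in WT BAT and 0 in Lr11 -/- mice, where the median was -0.55 (WT -2.24), and at 0 of 21 was 50% of the WT difference kept. The Lr11 -/- BAT mean lay at medians of -1.15, -0.07 and -0.56 from the 3 Lr11 -/- scWAT arrays, and without replicate 1 the median was -0.23. Lum, which encodes the collagen-binding lumican, was at 3.89, 2.68 and 2.72 in Lr11 -/- scWAT and 2.87, 2.83 and 2.41 in Lr11 -/- BAT (-0.40, with -3.06 in WT). Collagens kept an order in part, as Col1a1, at 4.81, 4.10 and 4.20 in scWAT and 3.80, 3.69 and 2.58 in BAT, did not overlap (-1.01, adjusted p = 0.66, with -3.76 in WT). For 10 of the 27 genes all BAT arrays were lower. Of 16 macrophage genes tested, none was called in Lr11 -/- mice, but all 16 had a negative difference and for 12 all BAT arrays were lower. The median was -1.04 against -2.10 in WT, and 3 of the 10 genes called in WT kept 50%. The Lr11 -/- BAT mean lay below each Lr11 -/- scWAT array, by medians of -1.40, -1.05 and -0.69. Mrc1, the mannose receptor, was at 2.43, 1.66 and 1.52 in scWAT and 0.61, 1.04 and 0.39 in BAT (-1.19, adjusted p = 0.50, with -2.10 in WT). Ccr2, the receptor by which monocytes enter tissues, was at -0.51, -0.63 and -0.68 in scWAT and -3.24, -2.48 and -2.41 in BAT (-2.10, adjusted p = 0.37, and -2.10 in WT). Whether the loss differed between both lists was not tested. Endothelial genes (14 tested, medians 0.36 in Lr11 -/- mice and 0.23 in WT), lymphocyte genes (12 tested, -0.40 and -0.44) and nerve and Schwann cell genes (9 tested, 0.19 and 0.50) gave no call in Lr11 -/- mice. Among the 9 muscle and 8 epithelial genes tested 0 were called as well (medians -0.59 and -0.58 in Lr11 -/- mice). Both medians rested on scWAT replicate 1, without which they were 3.01 and -0.08. The muscle median also rested on Lr11 -/- BAT replicate 1, which carried muscle transcripts. It was 0.39 in the second series alone, which holds neither array.

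The 8 genes lower in WT BAT with the largest interaction towards 0 included proteins of inflammation and of the matrix. Saa3, an acute phase protein, was at -2.84, -0.83 and -3.63 in Lr11 -/- scWAT and -6.05, -3.40 and -6.04 in Lr11 -/- BAT (-2.73, with -8.10 in WT, where scWAT was at 3.76, 8.30 and 2.05). Slpi, a protease inhibitor of mucosal and inflammatory fluids, had -1.87 in Lr11 -/- mice and -6.98 in WT. Marco, a scavenger receptor of macrophages, was at -2.12 to -2.01 in scWAT and -2.42 to -2.14 in BAT (-0.19, with -4.52 in WT). Cpz, a carboxypeptidase (0.02 and -4.55), Mfap4, a microfibril protein (0.01 and -4.50), Serpina3n, a protease inhibitor (-0.09 and -4.48), Kif1a, a kinesin motor (0.31 and -4.33) and Cyp2s1, a cytochrome P450 (0.73 and -3.65), had no Lr11 -/- difference beyond the spread. None of the 8 interactions was called (adjusted p = 0.23 to 0.42).

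The 5 interactions with the lowest p in each direction were again losses of a WT difference. Gcnt2, a glycosyltransferase, was at -0.17, -0.06 and -0.12 in Lr11 -/- scWAT, -0.77, -0.51 and -0.46 in Lr11 -/- BAT, 1.36 to 1.60 in WT scWAT and -1.17 to -0.73 in WT BAT. The depot difference was -0.46 in Lr11 -/- mice and -2.43 in WT, and the interaction 1.97 ± 0.27 (SE, unadjusted p = 1.7e-05, adjusted p = 0.18). Tmem184a, a membrane protein, was at -1.79, -2.36 and -1.97 in Lr11 -/- scWAT and on no WT scWAT array well above background (-0.21 and 4.14, adjusted p = 0.18). H2-Q10 (0.46 and 3.53), Shmt1, an enzyme of folate metabolism (0.68 and 3.69), Vars2, a mitochondrial tRNA synthetase (0.24 and 2.02), and H2-T3 (0.37 and 3.02) were likewise closer between the Lr11 -/- depots, as were Gnal, a G protein subunit (0.26 and -3.88), Adap2 (-0.30 and -2.48) and Cpz. Avpr1a, a vasopressin receptor, had -2.90 in WT and 0.76 in Lr11 -/- mice (interaction 3.66, adjusted p = 0.19). Without Lr11 -/- scWAT replicate 1, all 10 interactions were called (adjusted p = 0.00786 to 0.0392), as were 1222 of 32692 probes in all. The 10 genes were chosen for a low interaction p on largely the same arrays, so these calls are not separate support. Replicate 1 of Lr11 -/- scWAT did not stand apart from replicates 2 and 3 for Gcnt2, Adap2 and Avpr1a, unlike for Ucp1.

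Some transcripts were higher in Lr11 -/- scWAT replicates 2 and 3 than in BAT. These genes were chosen after their values were seen. Fgf21, a hormone of stressed and thermogenic tissue, was at -4.04, 2.67 and 3.38 in Lr11 -/- scWAT and at -0.81, -0.95 and -2.30 in Lr11 -/- BAT. The difference was -2.03 (adjusted p = 0.71) over all arrays and -4.38 (adjusted p = 0.0093) without replicate 1, with 0.15 in WT. Trib3, a pseudokinase of the stress response, was at 1.79, 4.03 and 4.93 in scWAT and 1.57 to 1.98 in BAT (-1.86, adjusted p = 0.42, and -2.75, adjusted p = 0.017, without replicate 1). Elovl3, a fatty acid elongase induced by cold, was at -1.28, 5.09 and 5.03 in scWAT and 2.52 to 3.89 in BAT. In the other direction, Dlk1, an inhibitor of adipogenesis, was at -1.55, -2.57 and -2.61 in scWAT and -0.33, -0.43 and 0.30 in BAT (2.09, adjusted p = 0.13, and 2.44, adjusted p = 0.027, without replicate 1, with 4.16 in WT). Ephb1, an ephrin receptor, was at -3.89, -3.05 and -3.50 in scWAT and -1.60, -1.83 and -1.32 in BAT (1.90, adjusted p = 0.053), where WT had -0.17. The probes called without replicate 1 also held several of the epididymis genes named with the arrays that stood apart, such as Gpx5, which was at -6.28, 0.18 and 0.92 in Lr11 -/- scWAT and between -6.55 and -5.57 in Lr11 -/- BAT.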

How the data were processed

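RNA of BAT and scWAT of WT and Lr11 -/- mice was hybridised to 12 one-colour Agilent arrays, 3 per group. The authors deposited scanner output of Feature Extraction (10.10 in the labels, 10.10.1.1 in the file headers), whose processed signal is a background-subtracted intensity. A value table deposited for the whole series equals this processed signal, without log2 or scaling (largest difference 0). Here log2 processed intensity was scaled to the 75th percentile. Control spots and outlier spots were left out, and spots of a probe were averaged. A fit (limma 3.58.1 in R 4.3.3, lmFit and eBayes) used the 4 group means of all 12 arrays and no covariates (8 residual and 2.61 prior degrees of freedom). P-values were adjusted by Benjamini-Hochberg over all probes tested in a contrast. Adjusted p and SE in the text are from this fit unless another setting is named. Scripts were tested on simulated data.

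RefSeq accessions gave 27235 of 55681 probes a symbol. Each gene was represented by its brightest tested probe. Members and the 17 gene lists were chosen with earlier results of these data known. Named were list members, all named calls in Lr11 -/- mice, the 8 genes per direction with the largest interaction towards 0 among those called in WT alone, and the 5 per direction with the smallest interaction p. Alternatives changed scaling, background correction, filter, batch, array weights, threshold or replicates. Leaving out the 5 arrays with muscle transcripts was chosen after seeing the data. "At least" folds set the bright group against the lowest signal well above background on each array. The number of arrays limits the precision.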

Additional observations from a re-analysis of the deposited data

Results flagged for a closer look

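Avpr1a was the gene of the text for which the depot difference ran in opposite directions in both genotypes on every array. It was 0.76 in Lr11 -/- mice, where it was not called. There scWAT was at -4.13, -4.13 and -4.04 and BAT at -3.36, -3.40 and -3.26. In WT it was -2.90, with scWAT at -1.56, 0.09 and -1.11 and BAT at -4.09, -3.22 and -3.97. The interaction test by limma gave 3.66 with a Benjamini-Hochberg adjusted p of 0.19.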

How the results depend on the processing

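The count of 10 probes called between the Lr11 -/- depots was 2 with normexp and 0 with the filter on all 12 arrays. It was 42 in the second series alone, 5095 with array weights and 5 at an adjusted p under 0.01. When single arrays were left out, it ranged from 7 to 94. The WT count of 7924 was 4012 with the slide as a block, 3994 with only WT arrays in the fit, 2434 without the arrays with muscle transcripts and 2385 at an adjusted p under 0.01, and ranged from 3087 to 10568. The interaction count of 0 was 859 in the second series alone and 1514 with array weights, and ranged from 0 to 1222. The share of WT calls with 50% or more of the difference in Lr11 -/- mice, 21.3%, was 7.51% in the second series alone, 10.7% with array weights and 5.10% without the arrays with muscle transcripts, and ranged from 12.4% to 39.3%. The cause was not tested. Without the arrays with muscle transcripts, WT BAT replicate 2 is alone in its group. No conclusion is therefore drawn from the count and the share of that setting. Without scaling, the WT calls split into 2478 higher and 4742 lower in BAT, against 4980 and 2944, as the median of all WT differences moved to -0.25. Of the 10 probes, all were also called with quantile normalization, with the array series as a block and with array weights, 6 with the slide as a block and 6 in the second series alone. The first series alone has 1 array per group and gave values with no test. Of 4534 values of genes under the alternatives, 130 changed sign while called in neither fit. No paired analysis was possible because the labels carry no replicate numbers and do not tie depots to mice.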

Other observations

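Some probes set Lr11 -/- scWAT replicates 2 and 3 apart from all other arrays, as values outside any comparison between the depots. Among probes well above background on all other 10 arrays, both lay at least 1 log2 unit below these at 31 probes (23 genes) and at least 1 above them at 18 probes (11 genes), counts that leave out genes dim elsewhere such as Gpx5. Trim12a, of the TRIM family, was at -5.48 and -6.39 on them, at 1.85 on replicate 1 and between -0.03 and 2.04 on the BAT and WT arrays. Its second probe was lowest on the same arrays, at -4.64 and -6.45. Of the 2 probes of Med8, a Mediator subunit, A_66_P107680 was at -6.88 and -5.21 on these arrays and at -1.34 on replicate 1, while the other was at 3.18 to 3.65 on all 3.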
